A study of Homo sapiens with 12 samples.

Results

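The difference between the JQ1 responses of 2 human multiple myeloma cell lines, KMS-12 and KMS-11, is described here. For each gene it is the log2 change from DMSO to JQ1 in KMS-12 minus the same change in KMS-11, so that a positive value means a more positive response in KMS-12. It rests on 8 of the 12 RNA libraries of the series: 2 DMSO and 2 JQ1 libraries of each line. Both lines carry the genotype label WT, JQ1 was given at 1 µM for 72 h, and the controls received DMSO, the solvent of the compound, in PBS at the same volume. The other 4 libraries are the same treatments of RPMI8226, another myeloma line, which served as a separate reading. Total RNA was sequenced after removal of ribosomal RNA. The labels do not name the sub-line of KMS-12, nor whether the replicates are different cultures, so p-values measure the spread of these libraries alone, possibly a technical one. Each line is 1 established culture and stands for no class of patients.

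JQ1 is a small molecule that fills the pocket with which BET proteins such as BRD2 and BRD3 bind acetyl-lysine. These proteins read acetylated histones and help bring the elongation machinery to active genes. Myeloma cells are malignant plasma cells, which fold and secrete large amounts of protein, and their endoplasmic reticulum (ER) is served by the unfolded protein response. Its sensors are IRE1 (ERN1), PERK (EIF2AK3) and ATF6. PERK switches on the ATF4 programme described below, and XBP1 and cleaved ATF6 raise chaperones, folding enzymes and degradation factors. A related membrane-bound system, the SREBP factors (SREBF1 and SREBF2), leaves the ER when sterols are low and switches on cholesterol and fatty acid synthesis. Heat shock factor HSF1 does the same work for chaperones of the cytosol. NF-kB, by contrast, controls survival and inflammatory genes and is often active in myeloma.

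The 8 libraries held between 20105627 and 27366499 counts, and a level at the limit that 0 reads allow (3 counts) was between 0.107 and 0.168 CPM in each; CPM are read counts scaled to a common library size, here by the TMM method, and intervals and limits cover counting error only. Replicates differed by more than sampling noise in every group, most in KMS-11 DMSO (chi-square per degree of freedom 22.3, against 5.64 to 13.2 in the other 3 groups of these lines). The line labels held against their translocation genes: FGFR3 had 127474 reads over the KMS-11 DMSO libraries and 4 over those of KMS-12, and CCND1 had 357 and 32472. The plasma cell factors PRDM1, IRF4 and XBP1 were read in all 8 libraries, CD3D, NKG7, DCN and HBB at 0 in all 8, and the surface marker CD38 at 30 reads over KMS-11 DMSO against 6032 over KMS-12 DMSO. Some other markers were read at low levels: CD3E had 104 reads over KMS-11 DMSO and 72 over KMS-12 DMSO, LYZ 44 and 1, COL1A1 30 and 6, and VWF 21 and 0. The nuclear RNAs MALAT1 and NEAT1 took 5.45% and 5.47% of the counts in KMS-11 DMSO, 20.0% and 17.5% in KMS-11 JQ1, 10.6% and 11.2% in KMS-12 DMSO and 35.7% and 35.1% in KMS-12 JQ1. The scaling therefore bears on every direction below: with library size alone the median difference over all genes moved from -0.03 to -0.52, and the share of calls that were more positive in KMS-12 from 50.6% to 13.5%. Fewer cells of a kind and less RNA per cell cannot be told apart in such libraries. Summed markers of other cell types were low and changed with JQ1: 12 stromal, endothelial and epithelial genes lay between 38.1 and 41.5 CPM in KMS-11 DMSO and between 6.11 and 6.85 in JQ1, and in KMS-12 between 28.3 and 28.7 and between 5.15 and 5.37. The sum of 12 T and NK cell genes was 7.79 and 8.44 in KMS-11 DMSO, 4.43 and 4.57 in JQ1, 15.6 and 15.7 in KMS-12 DMSO and 1.58 and 2.27 in JQ1. A sum of 12 B cell genes lay between 30.5 and 33.7 CPM in KMS-11 DMSO and 14.1 and 22.4 in JQ1, and between 4.99 and 6.15 and 0.656 and 0.947 in KMS-12. A sum of 12 myeloid genes went up instead, from between 1.68 and 2.09 to between 3.7 and 4.14 CPM in KMS-11 and from between 0.819 and 0.874 to between 1.67 and 1.74 in KMS-12. Their part in the results was not tested.

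Of 23493 genes tested, 4699 (20.0%) responded differently in the 2 lines (quasi-likelihood test of edgeR, with a Benjamini-Hochberg adjusted p under 0.05): 2380 (10.1%) had a more positive response in KMS-12 and 2319 (9.87%) a more negative one. Among the more positive, 866 rose in KMS-12 and did not pass in KMS-11, 500 fell in KMS-11 and did not pass in KMS-12, 394 rose in both and 225 fell in both. Among the more negative, 1026 fell in KMS-12 alone, 486 rose in KMS-11 alone, 389 fell in both and 113 rose in both. Passing in 1 line alone is not what marks these genes, since the difference itself was tested for each. A further 2156 genes fell and 1814 rose in both lines with no difference past the test. The shares of 10.1% and 9.87% are the background for the list counts below. For counts by library size alone the background is 1035 more positive and 6612 more negative of the 23493 genes.

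In 634 genes the 2 lines were called in opposite directions. The difference passed the test in all of them, as opposite calls in 1 fit all but require. There were 371 genes (1.58% of those tested) that rose in KMS-12 and fell in KMS-11, with a median log2 response of 0.70 and -0.76, and 263 (1.12%) that fell in KMS-12 and rose in KMS-11, with medians of -0.88 and 0.75. For comparison, 4757 genes (20.2%) rose and 6047 (25.7%) fell in KMS-12 whatever their call in KMS-11, and 4064 (17.3%) rose and 4976 (21.2%) fell in KMS-11 whatever their call in KMS-12. Protein-coding genes made up 329 of the 371 and 214 of the 263, and long non-coding RNA genes 25 and 32. Of the 371, 321 still differed in the same direction with library size alone, but 85 of them kept opposite calls; of the 263, the difference held in 263 and opposite calls in 112.

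**Figure D1:**
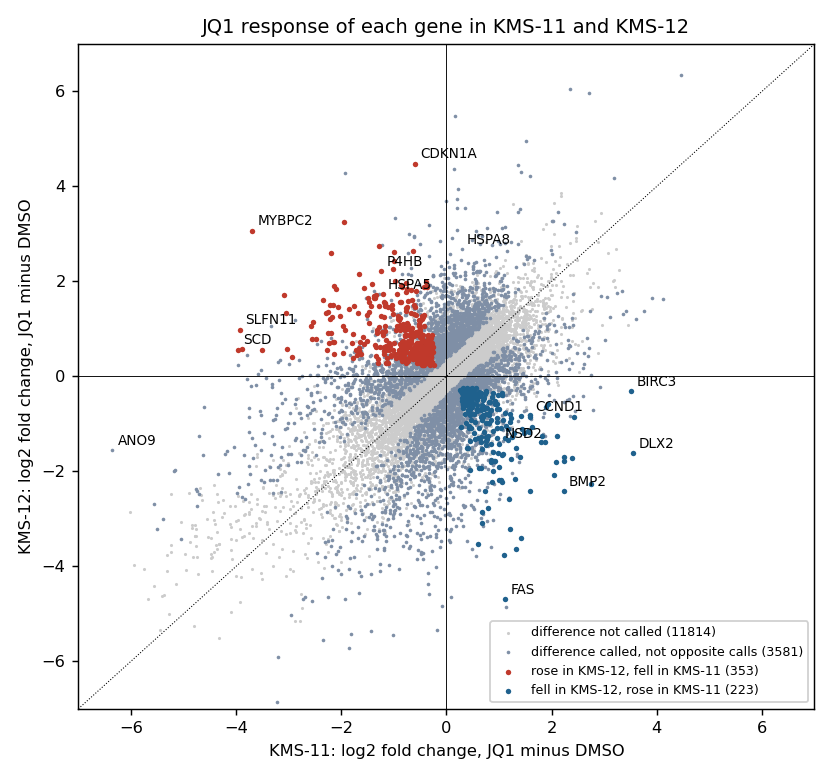
Each point is a gene with at least 10 reads in each of the 4 groups (15971 genes); the axes give the log2 fold change from DMSO to JQ1, KMS-11 across and KMS-12 upwards, and the dotted line marks equal responses. The 353 red genes rose in KMS-12 and fell in KMS-11, and the 223 blue genes fell in KMS-12 and rose in KMS-11; with library size alone in place of TMM 131 genes in all were called the first way and 621 the second.

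RPMI8226, whose libraries enter neither side of the contrast, followed KMS-11 more often than KMS-12 in the genes of opposite response. Of the 371 genes that rose in KMS-12 and fell in KMS-11, 192 (51.8%) fell in RPMI8226 and 21 (5.66%) rose, with a median of -0.38. Over all genes tested 4379 (18.6%) fell and 3195 (13.6%) rose in RPMI8226. Among all genes that fell in KMS-11, whatever KMS-12 did, 48.8% fell and 3.80% rose in RPMI8226, close to the shares in the 371. Among all that rose in KMS-12, 38.2% rose and 8.32% fell. Of the 263 genes of the other kind, 77 (29.3%) rose and 35 (13.3%) fell in RPMI8226; over all genes that fell in KMS-12 these shares were 5.34% and 36.2%, and over all that rose in KMS-11 48.4% and 3.57%. Whether RPMI8226 differed from KMS-12 in these genes was not tested here.

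Genes of protein folding in the ER fell in KMS-11 and mostly rose or did not pass in KMS-12. Of the 31 genes on a list of the unfolded protein response and ER folding, 23 had a more positive response in KMS-12 and 0 a more negative one by edgeR (10.1% and 9.87% over all genes), with a median difference of 1.60 against -0.03 for all genes; at an unadjusted p under 0.05 the counts were 26 and 0, by DESeq2 24 and 0, and by limma-voom 22 and 0. In KMS-11, 27 fell and 0 rose (median -0.98). In KMS-12, 15 rose and 3 fell (median 0.36), but with library size alone 5 rose and 14 fell (median -0.32), and the difference between the lines stood at 18 more positive and 2 more negative. Set against the median of all genes, the list's median difference was 1.62 under either scaling. A change of scaling moves all genes by nearly the same amount, so this value could hardly change and is no test of the scaling. Opposite calls were made in 13 members by TMM and in 4 by library size alone. ERO1B had no reads in KMS-12 and so shows no response there. RPMI8226 had 16 members that fell and 0 that rose (median -0.55).

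P4HB, a protein disulfide isomerase (ENSG00000185624; GRCh38 chromosome 17, 81843159 to 81860694, minus strand), had the smallest p of the list. Its level was 1569 and 1614 CPM in KMS-11 DMSO and 619 and 727 in KMS-11 JQ1, and 701 and 713 in KMS-12 DMSO and 3188 and 3386 in KMS-12 JQ1. The groups of each line did not overlap, and the KMS-12 libraries went from the lower of the DMSO pairs to the highest of all 4 groups. The log2 response was -1.24 (SE 0.12) in KMS-11 and 2.22 (SE 0.12) in KMS-12, a difference of 3.46 (SE 0.17) (n = 2 libraries per group here and throughout; edgeR, Benjamini-Hochberg adjusted p = 3.13e-10). P4HB still rose in KMS-12 with library size alone, at 1.45. Calreticulin (CALR), a lectin chaperone, went from 1618 and 1490 to 857 and 1108 CPM in KMS-11 and from 481 and 511 to 1422 and 1610 in KMS-12, a difference of 2.27 (SE 0.17, edgeR, Benjamini-Hochberg adjusted p = 4.96e-08). PDIA3, its partner oxidoreductase, went from 389 and 335 to 144 and 164 CPM and from 216 and 243 to 399 and 484, a difference of 2.17 (SE 0.17). Both reversed without overlap, though PDIA3 in KMS-12 stood at 0.17 and did not pass with library size alone. PDIA6 had a response of -1.39 (SE 0.11) in KMS-11 and 0.26 (SE 0.11) in KMS-12, the latter not past the test but a fall, at -0.51, by library size alone. DERL3, which helps export misfolded proteins for degradation, fell from 129 and 70.2 CPM to 3.09 and 5.10 in KMS-11 and stood at 5.88 and 7.14 (DMSO) and 4.04 and 4.32 (JQ1) in KMS-12, where it fell by 1.41 on the log2 scale with library size alone.

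The promoters of these genes were read for the ER stress element, to which NF-Y binds together with ATF6 or XBP1: CCAAT, then 9 bases, then CCACG, on either strand. The 300 bases around the start (250 before and 50 after) were searched. The element was present in 7 of the 28 list members found in the RefSeq promoter table (25%). It was in 22 of all 27305 promoters of that length (0.0806%) and in 15 of the 12904 matched genes tested (0.116%). Of matched genes that rose in KMS-12 and fell in KMS-11, 4 of 274 held it (1.46%), and 0 of the 201 of the opposite kind. The list is made of known targets of this pathway, so the share of 25% describes the list and not the response. The 4 include list members such as CALR, so the 1.46% is no separate reading. The 7 are HSPA5, HSP90B1, CALR, CRELD2, XBP1, CANX and ERO1B. The response of the first 5 differed between the lines, and their 250 upstream bases are shown for the site they share (RefSeq, build GRCh38.p14, 5′ to 3′ on the strand of the gene, ending at the base before the start; HSPA5 chr9:125241344-125241593, minus strand; HSP90B1 chr12:103930160-103930409, plus strand; CALR chr19:12938359-12938608, plus strand; CRELD2 chr22:49918384-49918633, plus strand; XBP1 chr22:28800570-28800819, minus strand). Capitals mark the CCAAT and CCACG of the element, read as CGTGG and ATTGG where it lies on the other strand.
HSPA5: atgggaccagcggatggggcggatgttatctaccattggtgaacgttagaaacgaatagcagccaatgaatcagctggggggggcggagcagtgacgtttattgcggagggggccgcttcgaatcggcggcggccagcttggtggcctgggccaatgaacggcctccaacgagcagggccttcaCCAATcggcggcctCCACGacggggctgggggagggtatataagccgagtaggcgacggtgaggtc
HSP90B1: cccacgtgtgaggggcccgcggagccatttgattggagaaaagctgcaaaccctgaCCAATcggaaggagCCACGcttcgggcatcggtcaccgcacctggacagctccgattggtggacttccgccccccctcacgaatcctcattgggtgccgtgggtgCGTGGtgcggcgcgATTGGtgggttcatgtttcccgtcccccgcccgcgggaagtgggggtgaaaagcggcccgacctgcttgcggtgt
CALR: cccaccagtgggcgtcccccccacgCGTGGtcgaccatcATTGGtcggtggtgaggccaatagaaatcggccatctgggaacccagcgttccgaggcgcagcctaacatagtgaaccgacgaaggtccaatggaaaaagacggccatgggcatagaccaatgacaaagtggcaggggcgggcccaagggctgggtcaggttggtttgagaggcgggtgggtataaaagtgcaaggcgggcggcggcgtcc
CRELD2: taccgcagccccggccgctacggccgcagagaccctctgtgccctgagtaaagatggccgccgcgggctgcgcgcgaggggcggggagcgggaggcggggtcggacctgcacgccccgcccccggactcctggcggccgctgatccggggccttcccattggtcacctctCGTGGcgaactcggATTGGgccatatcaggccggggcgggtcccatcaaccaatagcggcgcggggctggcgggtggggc
XBP1: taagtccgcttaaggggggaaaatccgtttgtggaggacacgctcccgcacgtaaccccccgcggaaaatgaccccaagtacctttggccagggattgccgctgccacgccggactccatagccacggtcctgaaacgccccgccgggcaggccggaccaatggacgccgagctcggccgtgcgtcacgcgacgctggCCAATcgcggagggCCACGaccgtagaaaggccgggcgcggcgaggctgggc

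HSPA5, the ER chaperone BiP and the best known carrier of the element, was at 1364 and 767 CPM in KMS-11 DMSO, 408 and 511 in KMS-11 JQ1, 477 and 560.4 in KMS-12 DMSO and 1613 and 1840 in KMS-12 JQ1. The KMS-11 DMSO libraries lay far apart, yet both were above the JQ1 pair, and the KMS-12 JQ1 pair was the highest of the 8. The difference was 2.95 (SE 0.33, edgeR, Benjamini-Hochberg adjusted p = 0.00018). HSP90B1, the ER member of the HSP90 family, with 2 copies of the element, differed by 2.14 (SE 0.32), and CRELD2 by 2.64 (SE 0.46). XBP1, the transcription factor itself, rose in KMS-12 (0.77, SE 0.14) and did not pass in KMS-11 (-0.12, SE 0.13); its difference of 0.89 (SE 0.19) did not pass with library size alone. Calnexin (CANX), which also holds the element, fell in KMS-11 at -0.51 (SE 0.12) and had -0.14 (SE 0.12) in KMS-12, a difference of 0.37 (SE 0.17) that did not pass. The sensors did not move together: EIF2AK3 rose in KMS-12 alone and differed by 1.96 (SE 0.21), while ERN1 and ATF6 fell in both lines and differed by 0.07 (SE 0.18) and -0.21 (SE 0.13), neither past the test.

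**Figure D2:**
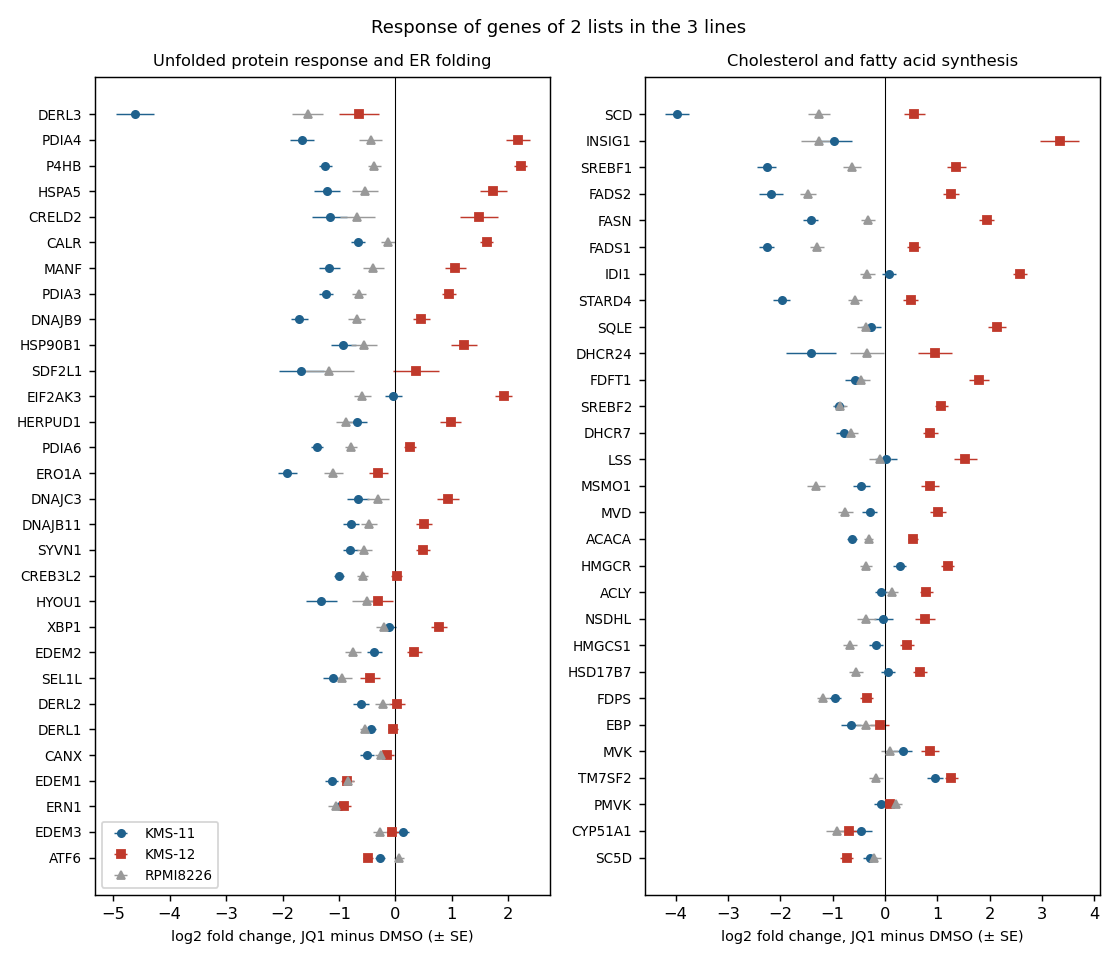
The log2 fold change from DMSO to JQ1 with its SE for genes of 2 lists with at least 10 reads in each group, in KMS-11 (blue circles), KMS-12 (red squares) and RPMI8226 (grey triangles), ordered by the difference between KMS-12 and KMS-11. In both lists most KMS-12 points lie to the right of those of the other lines; with library size alone the KMS-12 medians were -0.32 (ER folding) and 0.09 (sterol and fatty acid synthesis) in place of 0.36 and 0.86.

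The machinery that feeds and empties the ER moved the same way by a smaller amount. On a list of 43 translocon, glycosylation and COPII vesicle coat genes, 32 had a more positive response in KMS-12 and 0 a more negative one by edgeR (36 and 0 at an unadjusted p under 0.05, 32 and 0 by both DESeq2 and limma-voom), with a median difference of 0.85. In KMS-11 31 fell and 0 rose; in KMS-12 20 rose and 9 fell, a split that became 1 and 34 with library size alone, where 18 members still had a more positive and 1 a more negative response. DDOST, a subunit of the oligosaccharyltransferase, stood at 267 and 273 CPM before and 144 and 154 after JQ1 in KMS-11, and at 183 and 177 (DMSO) and 276 and 290.5 (JQ1) in KMS-12. The pairs did not overlap in either line, and the difference was 1.52 (SE 0.13, edgeR, Benjamini-Hochberg adjusted p = 2.28e-07). SEC24D, a cargo adaptor of COPII vesicles, fell in KMS-11 from 180.2 and 142 to 37.8 and 46.2 CPM and did not pass in KMS-12, from 65.6 and 66.4 to 67.4 and 65.5 (a fall, at -0.76, by library size alone). SEC31A, of the outer coat, showed the other form, with no call in KMS-11 (-0.17, SE 0.09) and a rise in KMS-12 (1.15, SE 0.09). In RPMI8226 30 of the 43 fell and 0 rose.

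Under TMM scaling most sterol and fatty acid genes rose in KMS-12, and most fell or did not pass in KMS-11. Of 31 tested genes on this list of 32, 24 had a more positive response in KMS-12 and 0 a more negative one by edgeR (25 and 1 at an unadjusted p under 0.05, 24 and 0 by DESeq2 and by limma-voom), with a median difference of 1.51. In KMS-12 25 rose and 3 fell (median 0.86), and in KMS-11 1 rose and 15 fell (median -0.57). With library size alone KMS-12 had 12 that rose and 7 that fell, and 18 members had a more positive and 1 a more negative response. Opposite calls were made in 12 members, and in 8 with library size alone. RPMI8226 had 0 that rose and 18 that fell (median -0.55).

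FASN (ENSG00000169710; GRCh38 chromosome 17, 82078333 to 82098332, minus strand), the fatty acid synthase, had 542 and 581 CPM in KMS-11 DMSO and 204 and 217 in KMS-11 JQ1. In KMS-12 it had 202 and 172 (DMSO) and 688 and 749.8 (JQ1). Each line's pairs were apart, and JQ1 exchanged the order of the lines: KMS-11 was the higher of the DMSO pairs and KMS-12 the higher of the JQ1 pairs. The difference was 3.36 (SE 0.20, edgeR, Benjamini-Hochberg adjusted p = 1.39e-08). SCD, the stearoyl-CoA desaturase, differed by 4.53 (SE 0.30), most of it from KMS-11, where 1288 and 1799 CPM became 99.6 and 97.8. Its KMS-12 levels of 287 and 208 CPM in DMSO and 326 and 404 in JQ1 were closer, and with library size alone SCD did not pass in KMS-12, at -0.21.

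Members differed in which line carried the change. INSIG1, the ER anchor of the SREBP factors and itself one of their targets, rose in KMS-12 by 3.34 (SE 0.37) and had -0.97 (SE 0.34) in KMS-11, not past the test. IDI1, an isomerase of the mevalonate pathway, went from 37.6 and 37.5 to 209 and 239 CPM in KMS-12 and from 46.1 and 62.2 to 50.7 and 63.3 in KMS-11, where the pairs overlapped; its difference was 2.50 (SE 0.19). FADS1, a desaturase of long fatty acids, and STARD4, a sterol carrier, fell in KMS-11 by 2.26 and 1.97 on the log2 scale and rose by 0.55 and 0.49 in KMS-12, where neither passed with library size alone (-0.22 and -0.28). The factors themselves, SREBF1 and SREBF2, taken for their role and not by the naming rule, differed by 3.62 (SE 0.26) and 1.95 (SE 0.17), with opposite calls in the lines under both scalings. The 3 members that fell in KMS-12 were FDPS, CYP51A1 and SC5D, enzymes of the same pathway, and the difference between the lines did not pass in CYP51A1 and SC5D.

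Cytosolic chaperones mostly rose in KMS-12, less clearly with library size alone. Of 23 tested heat shock genes on a list of 24, 15 had a more positive and 1 a more negative response in KMS-12, with a median difference of 1.18; with library size alone these counts were 11 and 4. In KMS-12 15 rose and 5 fell (9 and 8 with library size alone), and in KMS-11 3 rose and 11 fell. HSPA8, the constitutive HSC70, had 642 and 650 CPM in KMS-11 DMSO and 786 and 792 in JQ1, against 143 and 136 (DMSO) and 896 and 892 (JQ1) in KMS-12. It rose in both lines, far more in KMS-12, with a difference of 2.39 (SE 0.13, edgeR, Benjamini-Hochberg adjusted p = 1.04e-09); in KMS-11 it did not pass with library size alone. DNAJA1, one of its co-chaperones, differed by 1.58 (SE 0.15) in the same manner. HSPA1B, the inducible HSP70, went from 79.3 and 81.6 to 23.9 and 17.6 CPM in KMS-11 and from 6.80 and 6.55 to 59.7 and 66.8 in KMS-12, a difference of 5.19 (SE 0.27). Its reads can be shared with the near-identical HSPA1A and are uncertain to that extent. HSPA6, a related inducible chaperone, had 1 read over KMS-12 DMSO and 67 over KMS-12 JQ1, a ratio of 95.9 with a 95% counting interval of 16.6 to 3840, while it fell in KMS-11 from 58.8 and 38.7 to 5.09 and 4.21 CPM. SERPINH1, the collagen chaperone, and HSPA9, of mitochondria, fell in both lines; SERPINH1 fell less in KMS-12 (difference 1.95, SE 0.16) and HSPA9 more (difference -0.92, SE 0.17).

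Glycolytic and hypoxia-linked genes fell in KMS-11 and split in KMS-12. On this list of 29, 18 had a more positive and 2 a more negative response in KMS-12 (by library size alone, 14 and 3), and the median difference was 1.04. In KMS-11 25 fell and 2 rose (median -1.12). In KMS-12 7 rose and 10 fell (median -0.07); with library size alone 3 rose and 20 fell. Triosephosphate isomerase TPI1 showed opposite calls: 461 and 677 CPM to 301 and 324 in KMS-11 and 93.5 and 82.8 to 325 and 340.5 in KMS-12, with a difference of 2.78 (SE 0.20, edgeR, Benjamini-Hochberg adjusted p = 8.21e-08). ALDOA and ALDOC, the aldolases, differed by 1.99 (SE 0.21) and 2.57 (SE 0.26). P4HA1, a collagen prolyl hydroxylase, fell from 184 and 264 to 50.7 and 43.1 CPM in KMS-11 and went from 39.5 and 31.1 to 67.1 and 65.8 in KMS-12. The KMS-11 DMSO replicates were uneven in these 4 genes, with replicate 2 the higher, but both lay above the JQ1 pair. With library size alone the rise of ALDOA and P4HA1 in KMS-12 did not pass. The enolase ENO1 and the growth factor VEGFA, in contrast, fell in both lines without a difference past the test (0.15, SE 0.19, and -0.55, SE 0.43).

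Lysosome, autophagy and MHC class I genes were more often more positive than more negative in KMS-12. Of 40 lysosome and autophagy genes, 23 had a more positive and 1 a more negative response in KMS-12 (by library size alone, 17 and 8); 25 rose and 3 fell in KMS-12 (by library size alone, 10 and 18), and 12 rose and 13 fell in KMS-11. NEU1, the lysosomal sialidase, went from 63.4 and 64.4 to 256 and 304 CPM in KMS-12 and from 70.8 and 73.9 to 85.1 and 99.2 in KMS-11, a rise in both that was larger in KMS-12 by 1.78 (SE 0.15); in KMS-11 it did not pass with library size alone. ULK1, the kinase that starts autophagy, fell in KMS-11 from 139 and 158 to 94.8 and 82.2 CPM and rose in KMS-12 from 86.5 and 82.5 to 241 and 222, a difference of 2.20 (SE 0.16). Of 16 V-ATPase subunits, which acidify the lysosome, 3 were more positive and 2 more negative. By library size alone these counts were 1 and 9, beside 1035 and 6612 of all 23493 genes. Of 19 genes of MHC class I presentation, 10 had a more positive and 2 a more negative response (9 and 4 with library size alone). HLA-E had no call in KMS-11 (0.07, SE 0.13) and rose in KMS-12 (1.67, SE 0.14), though reads of HLA genes can be shared between copies. The MHC class II list of 16 split, with 3 more positive and 6 more negative: HLA-DRA fell further in KMS-12 (difference -1.32, SE 0.22), whereas HLA-DQB1 fell in KMS-11 and rose in KMS-12 (difference 1.73, SE 0.18), a rise that did not pass with library size alone. The more negative count of this list was lower with any single library left out.

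Of the 13 genes encoded in mitochondria, 11 had a more positive and 0 a more negative response in KMS-12 by edgeR (12 and 0 at an unadjusted p under 0.05, 12 and 0 by DESeq2, 11 and 0 by limma-voom), with a median difference of 0.77. The count was 2 with library size alone. It was 7 without KMS-11 DMSO replicate 1, 6 without KMS-11 JQ1 replicate 2, 7 without KMS-12 DMSO replicate 1 and 4 without KMS-12 JQ1 replicate 2. MT-CO1, a subunit of cytochrome oxidase, went from 4364 and 4434 CPM to 11430 and 12920 in KMS-12 and from 9021 and 7878 to 8992 and 7369 in KMS-11, where the pairs overlapped. Of 43 nuclear genes of the respiratory chain, 3 were more positive and 3 more negative. By library size alone these counts were 0 and 33, beside 1035 and 6612 of all 23493 genes.

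**Figure D3:**
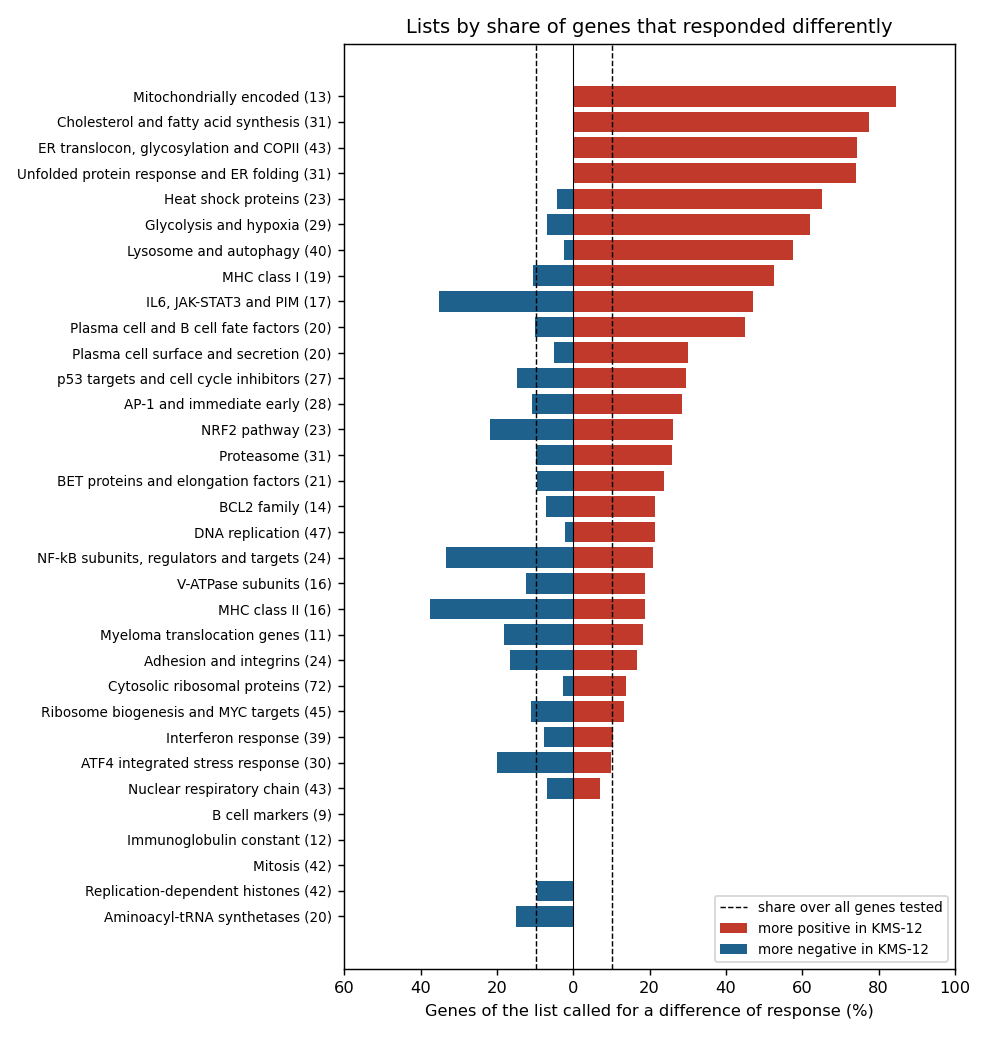
For each list with at least 9 tested genes (number in brackets), the share with a more positive response in KMS-12 (red, to the right) or a more negative one (blue, to the left), by the edgeR test with TMM scaling; dashed lines mark the shares over all genes, 10.1% and 9.87%. The mitochondrially encoded genes, the sterol genes and the 2 ER lists reach 74.2% to 84.6% on the right; with library size alone the share over all genes tips to the left.

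Outside these lists, the reversed genes with the largest differences included a regulator of the cell cycle, genes of muscle and actin structure and a chemokine. Of the 34 reversed genes named for the largest differences, 22 kept opposite calls with library size alone. CDKN1A (ENSG00000124762; GRCh38 chromosome 6, 36676460 to 36687339, plus strand), the cyclin-dependent kinase inhibitor p21, had 11 and 12.2 CPM in KMS-12 DMSO and 256 and 260.1 in KMS-12 JQ1. In KMS-11 it had 33.7 and 52.2 in DMSO and 31.2 and 25.1 in JQ1. The rise in KMS-12 left both JQ1 libraries far above the other 6, whereas the KMS-11 pairs lay close to each other. Pairs without overlap were a condition for naming CDKN1A among the largest reversed differences, so they add no support. The difference was 5.08 (SE 0.29, edgeR, Benjamini-Hochberg adjusted p = 5.79e-07). The list of 27 p53 targets and cell cycle inhibitors that holds CDKN1A was mixed. It had 8 more positive and 4 more negative responses (29.6% and 14.8%, against 10.1% and 9.87% over all genes). By library size alone the counts were 3 and 8, with 1035 and 6612 of all 23493 genes, so the more negative share was close to that over all genes. Both counts moved when single libraries were left out. MDM2 differed by 0.26 (SE 0.14), not past the test, and CDKN1B, the related inhibitor p27, rose in KMS-11 by 1.28 and stood at 0.01 in KMS-12 (-0.76, a fall, with library size alone).

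MYBPC2, a myosin-binding protein of muscle, went from 16.9 and 15.4 to 122 and 149 CPM in KMS-12 and from 21.9 and 40.2 to 1.57 and 3.31 in KMS-11, a difference of 6.76 (SE 0.53). SLFN11, which blocks stressed replication forks, fell in KMS-11 from 8.79 and 7.83 to 0.428 and 0.673 CPM and had 1.10 and 1.20 (DMSO) and 2.42 and 2.16 (JQ1) in KMS-12, where the rise was not called with library size alone. The phosphatase PTP4A3, the adaptor GRB7, the calcium-binding NUCB2 and the actin-binding CNN2 differed by 4.80, 4.39, 4.06 and 4.47. The rises of GRB7, NUCB2 and CNN2 in KMS-12 were not called with library size alone. LSP1, another actin-binding protein, kept 3 of 564 reads in KMS-11, a ratio of 0.00672 (95% counting interval 0.00138 to 0.0197), against 7.66 and 9.76 (DMSO) and 13.4 and 12.1 (JQ1) CPM in KMS-12, a rise that was not called with library size alone. CCL5, a chemokine, fell from 24.9 and 35.6 to 5.85 and 6.67 CPM in KMS-11 and was at 0 and 0.146 (DMSO) and 0.454 and 0.631 (JQ1) in KMS-12.

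Genes of cytokine signalling also reversed. IL6R, the receptor for the myeloma growth factor IL-6, had 12.8 and 20.4 CPM in KMS-11 DMSO and 2.90 and 4.26 in JQ1, against 131 and 126 (DMSO) and 283 and 312 (JQ1) in KMS-12. Both pairs were apart in each line and in opposite order, for a difference of 3.43 (SE 0.28, edgeR, Benjamini-Hochberg adjusted p = 4.4e-06). PTPN6, the phosphatase SHP-1 that restrains cytokine receptors, reversed likewise (3.30, SE 0.34), whereas the kinase JAK2 reversed the other way, at 0.54 (SE 0.15) in KMS-11 (not called with library size alone) and -1.32 (SE 0.16) in KMS-12. The list of 17 genes of IL-6, JAK-STAT3 and PIM signalling was split, 8 more positive and 6 more negative. Its median was near 0, and the sign changed with the genes and libraries kept. The more negative count was lower with any single library left out. TENT5C, a poly(A) polymerase that stabilises mRNAs of the secretory pathway and a tumour suppressor of myeloma, was at 387 and 421 (DMSO) and 273 and 369.5 (JQ1) CPM in KMS-11 without a call and rose from 59.2 and 63.5 to 560.5 and 562 in KMS-12 (difference 3.52, SE 0.19).

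The opposite reversal, a rise in KMS-11 and a fall in KMS-12, was largest among genes with at least 10 reads in each of the 4 groups for FAS (ENSG00000026103; GRCh38 chromosome 10, 88990582 to 89015785, plus strand), the death receptor CD95. It had 56.0 and 55.2 CPM in KMS-11 DMSO and 125 and 117 in KMS-11 JQ1. In KMS-12 27.9 and 28.2 CPM became 1.16 and 1.00, and the KMS-12 JQ1 libraries were the lowest. Pairs apart in both lines were a condition for naming FAS, so they add no support. The difference was -5.81 (SE 0.19, edgeR, Benjamini-Hochberg adjusted p = 2.63e-12), and it kept opposite calls with library size alone. RPMI8226 went from 20.6 and 20.7 to 27.1 and 23.7 CPM, a rise by the test.

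BIRC3, an inhibitor of apoptosis and a target of NF-kB, rose in KMS-11 from 72.0 and 75.2 to 771 and 904 CPM. In KMS-12 it fell from 58.3 and 51.4 to 47.4 and 41.2, a small step beside the other. The difference was -3.82 (SE 0.16, edgeR, Benjamini-Hochberg adjusted p = 1.26e-10). Of 24 tested genes on an NF-kB list of 28, 8 had a more negative and 5 a more positive response in KMS-12. The more positive count was lower without any one of the KMS-12 libraries. By library size alone the counts were 12 more negative and 3 more positive, beside 6612 and 1035 of all 23493 genes. NFKB2, the subunit of the non-canonical pathway, and TRAF3, which restrains that pathway, rose in KMS-11 (0.93 and 0.96) and did not pass in KMS-12 (-0.18 and -0.04), where both fell with library size alone. The adhesion molecule ICAM1 had opposite calls, at 0.44 (SE 0.11) in KMS-11 and -0.73 (SE 0.11) in KMS-12. The canonical subunits NFKB1 and RELA had positive differences of 0.48 and 0.40, which were -0.035 and -0.11 and not called with library size alone. The chemokine CCL3 rose in KMS-12 (4.29) and not in KMS-11 (-1.92, not past the test); without KMS-12 DMSO replicate 1 the CCL3 difference no longer passed (edgeR, Benjamini-Hochberg adjusted p = 0.0576). The list's median changed sign between settings and gives no direction.

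Of 11 tested genes on a list of myeloma translocation genes, 2 had a more positive and 2 a more negative response in KMS-12 (by library size alone, 2 and 3), and 3 of them, NSD2, CCND1 and MYEOV, had opposite calls. NSD2, the histone methyltransferase at the t(4;14) breakpoint, had 2276 and 2817 CPM in KMS-11 DMSO and 3974 and 6176 in JQ1, and 269 and 274 (DMSO) and 97.3 and 106 (JQ1) in KMS-12. It rose where it was high and fell where it was low, a difference of -2.41 (SE 0.23, edgeR, Benjamini-Hochberg adjusted p = 2.65e-06). CCND1, cyclin D1, was high in KMS-12, where it fell from 620 and 549 to 331 and 317 CPM, and low in KMS-11, where it rose from 6.46 and 8.18 to 22.7 and 21.1. MYEOV, its neighbour on chromosome 11, went the other way, at -1.03 (SE 0.26) in KMS-11 and 1.41 (SE 0.20) in KMS-12. POU2AF1, a B-cell coactivator, rose from 282 and 267 to 603 and 746 CPM in KMS-11 and fell from 5.27 and 6.37 to 1.26 and 1.32 in KMS-12. FGFR3 and MAF were read 4 and 0 times over KMS-12 DMSO, so that a difference was not detectable there.

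**Figure D4:**
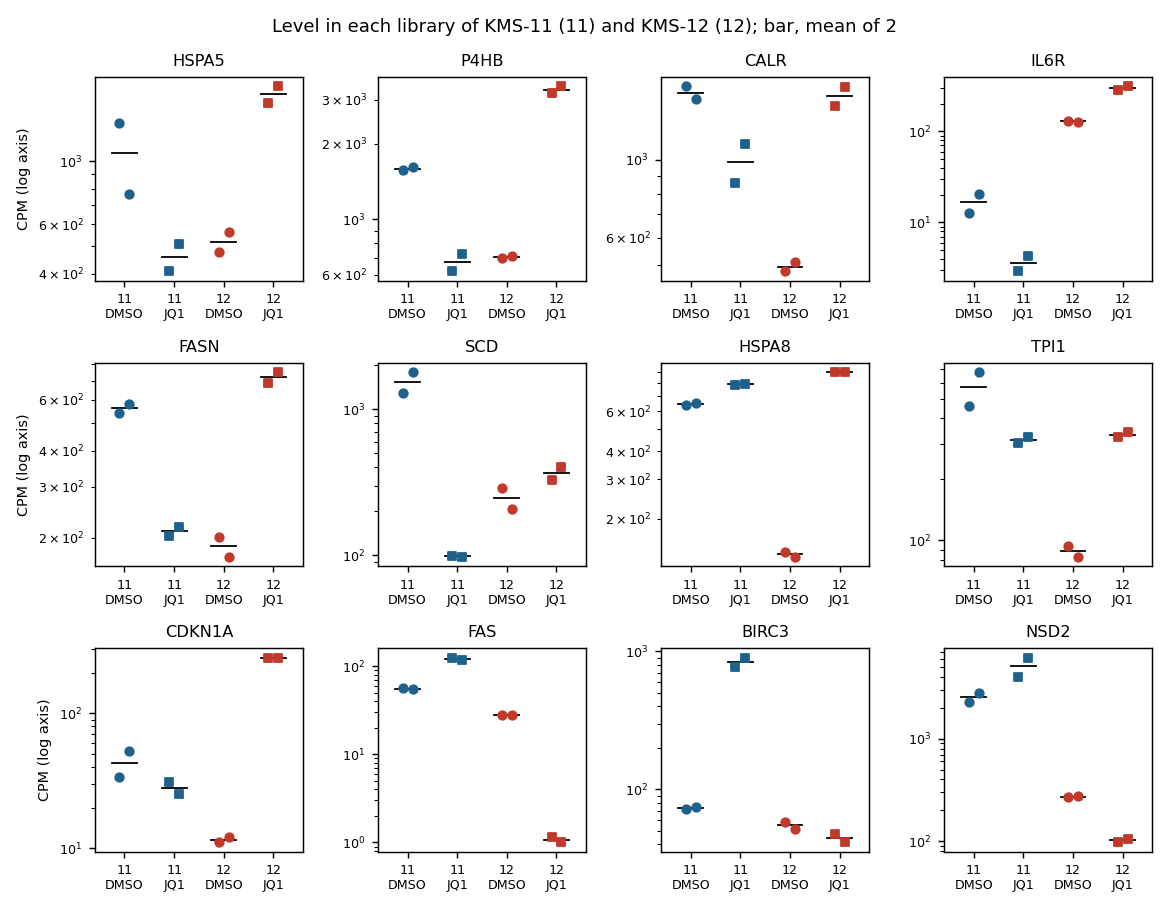
The level of 12 genes in each of the 8 libraries, in CPM on a log axis, with circles for DMSO, squares for JQ1, blue for KMS-11, red for KMS-12 and a bar at the mean of 2. HSPA5, P4HB, CALR, IL6R, FASN, SCD, TPI1 and CDKN1A fell in KMS-11 and rose in KMS-12, HSPA8 rose in both, and FAS, BIRC3 and NSD2 rose in KMS-11 and fell in KMS-12; with library size alone SCD in KMS-12 and HSPA8 in KMS-11 did not pass.

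Several further genes that rose in KMS-11 became undetected in KMS-12. TMTC1, a glycosyltransferase of the ER, rose from 35.7 and 34.9 to 155 and 147 CPM in KMS-11 and went from 372 reads to 0 in KMS-12, at least 86.7-fold lower (against 3 counts over the group). ANK3, an ankyrin, ARHGEF3, a guanine nucleotide exchange factor, CD82, a tetraspanin, and PTPN13, a phosphatase that binds FAS, had 14 to 29 reads in KMS-12 DMSO and 0 in JQ1, at least 3.26-fold to 6.76-fold lower, and rose in KMS-11 by 1.10, 1.84, 1.19 and 1.22. FGF2, a fibroblast growth factor, went from 11.5 and 8.13 to 28.2 and 37.3 CPM in KMS-11 and from 3.56 and 3.53 to 0.151 and 0.263 in KMS-12. Of the genes with at least 10 reads in each group, the homeobox gene DLX2 went from 0.581 and 0.258 to 6.04 and 4.04 CPM in KMS-11 and from 1.96 and 1.86 to 0.404 and 0.842 in KMS-12, and the growth factor BMP2 from 0.387 and 0.344 to 1.38 and 2.13 and from 2.96 and 2.33 to 0.252 and 0.737. The presynaptic RIMS3 and the sodium-proton exchanger SLC9A9, at higher levels, differed by -4.86 (SE 0.35) and -4.14 (SE 0.23).

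Among genes that passed in KMS-12 and not in KMS-11, the phosphatase DUSP5, which turns off ERK, went from 17.4 and 16.1 to 352 and 339.8 CPM in KMS-12 and from 31.2 and 36.5 to 38.9 and 35.5 in KMS-11, where the pairs overlapped; the difference was 4.23 (SE 0.19, edgeR, Benjamini-Hochberg adjusted p = 1.96e-10). ADM, the peptide adrenomedullin, rose in KMS-12 (2.77, SE 0.48) and had -1.23 (SE 0.53) in KMS-11. CCDC141 fell from 14.8 and 13.4 to 0.505 and 0.474 CPM in KMS-12 and held 72.4 and 74.8 (DMSO) and 73.1 and 66.0 (JQ1) in KMS-11. DLG5, a scaffold protein, and ERC2, of the synaptic active zone, differed by -4.74 and -5.98. The apoptosis activator HRK fell in KMS-12 (-3.43, SE 0.28) and was not called in KMS-11, where it fell with library size alone, while MCL1, a survival factor, rose in both lines and more in KMS-12 by 1.43 (SE 0.16). BCL2 fell in both with a difference of 0.33 (SE 0.14) that did not pass and was -0.18 with library size alone.

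Among genes that passed in KMS-11 and not in KMS-12, DNASE2, a lysosomal nuclease, fell from 62.1 and 54.8 to 3.38 and 4.09 CPM in KMS-11 and was at 82.4 and 75.6 (DMSO) and 94.2 and 92.3 (JQ1) in KMS-12, a difference of 4.21 (SE 0.20, edgeR, Benjamini-Hochberg adjusted p = 2.41e-10). DNASE2 also fell in KMS-12 with library size alone, by 0.53. PDIA2, a disulfide isomerase, fell from 5.38 and 3.36 to 0.238 and 0.393 CPM in KMS-11. FOSB, an AP-1 subunit, rose from 4.57 and 2.41 to 31.5 and 21.9 CPM in KMS-11 and had 2.53 and 2.22 (DMSO) and 1.72 and 2.37 (JQ1) in KMS-12. The immediate early gene IER5 had 1.78 (SE 0.17) in KMS-11 and 0.00 (SE 0.18) in KMS-12 (-0.77, a fall, with library size alone).

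Other genes moved the same way in both lines by different amounts. ANO9, a scramblase of the anoctamin family, fell from 32.6 and 31.6 to 0.381 and 0.393 CPM in KMS-11 and from 148 and 112 to 48.1 and 40.6 in KMS-12, deeper in KMS-11 by 4.80 (SE 0.29). ZFP36, which degrades AU-rich mRNAs, rose from 47.1 and 60.8 to 144 and 166 CPM in KMS-11 and from 15.8 and 13.2 to 435 and 462 in KMS-12, and fell in RPMI8226 from 79.4 and 69.9 to 45.5 and 38.7. FTL, the ferritin light chain, rose in all 3 lines, KMS-11 by 1.36, KMS-12 by 3.47 and RPMI8226 by 0.95, and its many processed copies make its reads uncertain. UBE2L6, the conjugating enzyme for ISG15, fell from 43.2 and 39.9 to 20.3 and 20.6 CPM in KMS-11 and from 21.9 and 18.9 to 0.353 and 0.579 in KMS-12, and LAIR1, an inhibitory receptor, differed by -3.61 (SE 0.27). The plasma cell regulators IRF4 and PRDM1 were more positive in KMS-12, by 0.95 (SE 0.16) and 1.05 (SE 0.19). PRDM1 rose in both lines, but IRF4 did not. IRF4 went from 1405 and 1442 to 2374 and 2423 CPM in KMS-12 and from 825 and 813 to 636 and 789 in KMS-11.

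The responses that the lines shared set the frame for these differences. All 42 genes of a mitosis list fell in KMS-11 (median -4.05) and 41 fell in KMS-12 (median -3.08), whereas 2 rose and 0 fell in RPMI8226. 0 of the 42 passed the test of the difference by edgeR (2 at an unadjusted p under 0.05, 1 by DESeq2, 0 by limma-voom), although 38 had a positive difference, with a median of 0.94. Leaving out KMS-11 DMSO replicate 1 raised the count of more positive responses to 18, leaving out KMS-12 JQ1 replicate 1 to 1, and leaving out KMS-11 DMSO replicate 2 gave 3 more negative ones. Of 47 DNA replication genes 10 were more positive and 1 more negative (by library size alone, 4 and 6), and single libraries moved the first count between 26 (without KMS-11 DMSO replicate 1) and 2 (without KMS-12 JQ1 replicate 2); it was 4 or 5 without either KMS-11 JQ1 or either KMS-12 DMSO library, and the second count was 4 without KMS-11 DMSO replicate 2. CDC6, which loads the replicative helicase, fell from 40.5 and 52.0 to 3.66 and 3.25 CPM in KMS-11 and from 26.9 and 28.0 to 5.30 and 7.95 in KMS-12, a difference of 1.68 (SE 0.26).

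The ATF4 programme of amino acid supply, which PERK and other kinases switch on, fell in both lines. Of its 30 genes 3 were more positive and 6 more negative in KMS-12, with a median of -0.15; 23 fell and 0 rose in KMS-11, and 17 fell and 0 rose in KMS-12. By library size alone 1 was more positive and 10 more negative (median -0.66), beside 1035 and 6612 of all 23493 genes. Under that scaling 23 fell in KMS-11 and 23 in KMS-12. SLC7A5, the leucine carrier, fell from 871 and 819.6 to 469.5 and 268 CPM in KMS-11 and from 316 and 295 to 28.5 and 36.1 in KMS-12, a difference of -2.04 (SE 0.32). ATF4 itself differed by 0.12 (SE 0.36) (-0.38 with library size alone) and DDIT3 by 0.76 (SE 0.40), neither past the test. The more negative count was 3 without KMS-11 DMSO replicate 2 and 14 without KMS-11 JQ1 replicate 2, and the more positive one 10 without KMS-11 JQ1 replicate 1 and 1 without KMS-12 JQ1 replicate 2.

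HEXIM1, the inhibitor of P-TEFb that serves as a marker of BET inhibition, rose in both lines, from 23.4 and 20.3 to 122 and 119.8 CPM in KMS-11 and from 24.6 and 21.3 to 181 and 198 in KMS-12. Its difference of 0.58 (SE 0.17) passed (edgeR, Benjamini-Hochberg adjusted p = 0.0227) but was lost in 7 of 20 other settings, including library size alone and leaving out KMS-11 DMSO replicate 1, KMS-11 JQ1 replicate 2, KMS-12 DMSO replicate 2 or KMS-12 JQ1 replicate 2. Of 21 tested BET and elongation genes on a list of 23, 5 were more positive (fewer without KMS-12 JQ1 replicate 2) and 2 more negative. With library size alone these counts were 0 and 9, beside 1035 and 6612 of all 23493 genes. BRD2 rose in both lines and more in KMS-12 (0.70, SE 0.14, not called with library size alone), and BRD3 fell in KMS-12 (-1.04, SE 0.10). MYC had -0.47 (SE 0.19) in KMS-11, not past the test, and -0.88 (SE 0.19) in KMS-12, with a difference of -0.41 (SE 0.26) that did not pass. With library size alone the MYC difference was -0.92 and passed (edgeR, Benjamini-Hochberg adjusted p = 0.0381), so its call depends on the scaling. FLI1 differed by 0.24 (SE 0.20), also without a call (-0.28 with library size alone), and LINC00582 went from 24 reads to 0 in KMS-11 and from 4 to 0 in KMS-12, too few for a difference to be detectable.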

How the data were processed

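RNA-seq of 12 libraries was used, 2 for each of 6 groups. The authors deposited raw counts of reads per gene, whole numbers with no normalization. Per the submitters' processing notes, DESeq2 and MACS2 were used, with the genome builds GRCh38.p13 and hg38, in roles that the notes do not state; for the aligner, the counter and its use of strand, the sources used here give nothing, so reads of overlapping and antisense genes cannot be told apart. Per the labels' protocols, libraries were stranded and depleted of ribosomal RNA. Of 60666 gene identifiers, 60437 (99.62%) had a symbol, and gene positions are those of GENCODE release 29 on GRCh38.

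With a minimum count of 10 and a minimum total of 15, filterByExpr over all groups kept 23493 genes. Counts were scaled by TMM and fitted in 1 model of 6 group means with the robust quasi-likelihood method of edgeR 4.0.16 in R 4.3.3, without a replicate block. The contrast was the response of KMS-12 minus that of KMS-11, and p-values were adjusted by Benjamini-Hochberg over all genes, with a threshold of 0.05. A gene was called reversed where each line passed in opposite directions and the difference passed. A standard error is the log2 value divided by the square root of its F statistic. Totals per library lay between 20105627 and 27366499 counts. Tested on simulated data with 200 changed genes among 22951, this contrast recovered 7.46% of 1.5-fold, 49.3% of 2-fold and 71.2% of 4-fold changes, and 6 of 91 calls were false. In the data 4699 of 23493 genes were called, so these shares can differ there.

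Members and the 37 gene lists were chosen with earlier results of these data known. Named genes had a mean of at least 1 CPM over the 8 libraries and JQ1 pairs apart from DMSO pairs: the 10 largest reversed differences in each direction, the 5 largest in each direction among genes called in KMS-12 alone, in KMS-11 alone or in both alike (at least 10 reads a group), in each list up to 4 called members ranked by p, and fixed regulators; a few of these are not reported here. A second set of 10 in each direction, with at least 10 reads in each group, was added after seeing the data. HSPA5, HSP90B1, CRELD2, CANX, EIF2AK3, ERN1, ATF6, SREBF1, SREBF2, FDPS, SC5D, CYP51A1, HSPA9, ENO1, VEGFA, MDM2, NFKB1 and RELA fall outside the rule and were chosen after their values were seen. Deviations of same-numbered DMSO and JQ1 libraries were correlated over 16949 genes (KMS-11 0.153, KMS-12 0.032, RPMI8226 0.18). For groups of different lines the correlations lay between -0.054 and 0.097. The values of KMS-11 and RPMI8226 were above this range, so a pairing by number is possible there, while that of KMS-12 was within it. The main model still took the numbers as unpaired, and counts with a replicate block are given below. Alternatives were other scalings, filters, DESeq2 1.42.0, limma-voom (limma 3.58.1), fewer libraries and a replicate block; the scaling without MALAT1 and NEAT1 was chosen after seeing the data.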

Additional observations from a re-analysis of the deposited data

Results flagged for a closer look

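The responses of the lines to JQ1 differed, by a test of the difference itself, in 2380 genes that were more positive and 2319 that were more negative in KMS-12, with 371 and 263 of opposite calls. Single genes of large reversed differences were singled out for the same reason. On the log2 scale the positive ones were 9.58 for HSPA6, 7.67 for LSP1, 6.76 for MYBPC2, 5.92 for SPN, the leukocyte sialoglycoprotein CD43, 5.61 for HECW1-IT1, 5.19 for HSPA1B, 5.15 for P3H3, a prolyl hydroxylase of collagen, 5.09 for CCL5 and 5.08 for CDKN1A. The negative ones were -12.31 for TMTC1, -8.23 for ARHGEF3, -7.65 for ANK3, -7.41 for CD82, -6.73 for PTPN13, -6.11 for ERCC6L, a helicase of mitosis, -5.81 for FAS, -5.80 for FGF2, -5.50 for L3MBTL4 and -5.46 for MPP7.

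Fitted values of genes with few or no reads in a group depend on the prior count and are no bounds. SPN went from 6 reads to 0 and P3H3 from 7 to 0 in KMS-11, at least 1.58-fold and 1.85-fold lower against 3 counts over the group, and HECW1-IT1 from 0 to 5 in KMS-12, at least 2.38-fold higher. L3MBTL4 and MPP7 went from 11 and 5 reads to 0 in KMS-12, at least 2.56-fold and 1.17-fold lower. ERCC6L had 2 reads over KMS-11 DMSO and 12 over JQ1, a ratio of 7.58 with a 95% counting interval of 1.69 to 69.7. CDKN1A, FAS, HSPA1B and MYBPC2 had more reads and are described above. FGF2 in KMS-12 JQ1 and CCL5 in KMS-12 DMSO had few reads, at levels near 3 counts per library. The fitted differences of FGF2 and CCL5 are uncertain to that extent.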

How the results depend on the processing

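With library size alone the counts were 1035 more positive, 6612 more negative, 131 that rose in KMS-12 and fell in KMS-11 and 621 of the opposite kind; leaving MALAT1 and NEAT1 out of the library size gave 1479, 4072, 243 and 492. Tested against a fold of 1.5 they were 963, 957, 63 and 40. Leaving out 1 library at a time, they lay between 1775 and 2778, 1509 and 2520, 286 and 468, and 168 and 271; the more negative count was lowest without KMS-12 JQ1 replicate 2, and the last was 171 without KMS-11 JQ1 replicate 2, 173 without KMS-12 DMSO replicate 1 and 173 without KMS-12 JQ1 replicate 2. Over the 20 settings these counts stayed within 1.5 times the reported one in 17, 16, 17 and 13. Of 186 named genes, 136 kept their side of the threshold and direction in all 20 settings, 45 lost the call in at least 1, and 0 of those called changed direction.

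The replicate numbers were not taken as pairs. A replicate block within each line gave 2766, 2720, 458 and 325, and a block common to all lines 2412, 2370, 386 and 266. ADM lost its call under the first (edgeR, Benjamini-Hochberg adjusted p = 0.0783).

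Other list medians turned too: by library size alone the median difference of the p53 list went from 0.34 to -0.17, of the BCL2 family from 0.35 to -0.17 and of the BET list from 0.19 to -0.33. The NF-kB list median, 0.07, was -0.44 with library size alone, -0.19 without MALAT1 and NEAT1, -0.31 at 10 CPM or more, -0.048 with the 8 libraries alone, and between -0.26 and 0.155 without single libraries. The IL-6, JAK-STAT3 and PIM median, -0.05, was 0.56 at 10 CPM or more and between -0.26 and 0.54 without single libraries. With library size alone, then without MALAT1 and NEAT1, ATF4 was -0.38 and -0.14 and FLI1 -0.28 and -0.028; BCL2 was -0.18 with library size alone. Without single libraries ATF4 lay between -0.22 and 0.575. The cause was not tested.

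With 2 libraries a group, 1.5-fold differences can be missed. The simulation recovered 7.46% of them, but it changed 200 genes, far fewer than the 4699 called in the data, so recovery there can differ. Of the 2380 more positive calls 1219 differed by at least 1 on the log2 scale, and of the 2319 more negative 1441. Genes under about 10 reads a group give bounds only. Total counts do not show whether JQ1 changed the RNA content of a cell, and each line is 1 culture.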

Other observations

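Of 20 plasma cell and B cell fate factors 9 were more positive and 2 more negative in KMS-12 (by library size alone, 4 and 3). IKZF3, the lymphoid factor Aiolos, fell in KMS-12 from 418 and 385 to 186 and 183 CPM and did not pass in KMS-11, at 1226 and 1280 (DMSO) and 1306 and 1659 (JQ1). CREB3L2, a factor that expands the secretory pathway, fell in KMS-11 from 344 and 331 to 166 and 171 CPM and stood at 187 and 197 (DMSO) and 197 and 193 (JQ1) in the other line, where it fell with library size alone. Of 20 tested genes of the plasma cell surface and secretion 6 were more positive and 1 more negative. CD28, a costimulatory receptor, fell in both lines, in KMS-11 from 409.6 and 492 to 292 and 355 CPM and in KMS-12 from 7.38 and 5.75 to 0.858 and 0.684, a difference of -2.60 (SE 0.27). GPRC5D, a surface receptor of plasma cells, had 3 reads over KMS-12 DMSO and 24 over JQ1, a ratio of 11.4 with a 95% counting interval of 3.48 to 59.4, and fell in KMS-11 by 4.17 on the log2 scale.

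NRF2 targets rose in both lines under TMM scaling, 16 of 23 tested in KMS-11 and 14 in KMS-12 (9 that rose and 9 that fell with library size alone). The members differed in which line rose more. Thioredoxin reductase TXNRD1 went from 122 and 128 to 408 and 484 CPM in KMS-11 and from 181 and 180.1 to 285 and 336 in KMS-12 (difference -1.05, SE 0.15), and the peroxiredoxin PRDX1 from 90.7 and 125 to 207 and 274 and from 51.4 and 44.0 to 294 and 298 (difference 1.48, SE 0.24). Of 42 tested replication-dependent histone genes, whose reads can be shared between copies, 4 were more negative and 0 more positive by edgeR (9 and 2 at an unadjusted p under 0.05, 9 and 0 by DESeq2, 4 and 0 by limma-voom). That count of 4 was 11 and 27 without KMS-11 DMSO replicate 1 and replicate 2, and 2 without KMS-11 JQ1 replicate 2, KMS-12 DMSO replicate 1 or KMS-12 JQ1 replicate 1.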
